A study of Homo sapiens with 38 samples.

Results

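The 10 genes described here encode the chemokines CXCL8, CXCL1, CXCL2, CXCL3 and CCL20, the cytokines IL6, IL11 and LIF, and the feedback inhibitors NFKBIA and TNFAIP3. They were taken by symbol from the annotation of the array, which placed 16 probe sets on them, and they are 10 of the 19775 genes that had a probe set of their own. All 10 passed the filter on low signals and were tested among 11456 genes. Each passed with at least 1 probe set, CXCL1 and CXCL2 through HT-29 arrays alone and IL6 and IL11 through HT-1080 arrays alone. CXCL2, CCL20 and the probe set that stood for TNFAIP3 passed only through treated arrays.

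The study measured how cancer cells respond at the transcript level when glucose use is blocked and mitochondrial respiration is impaired, with the unfolded protein response as its stated subject. RNA was measured on 38 expression arrays, 29 from HT-1080 fibrosarcoma cells and 9 from HT-29 colorectal adenocarcinoma cells, including rho0 derivatives of both lines, which lack mitochondrial DNA. There were 12 untreated arrays (6 HT-1080, 2 HT-1080 rho0, 3 HT-29 and 1 HT-29 rho0) and 26 treated ones, and the description of every treated array names the control array it belongs with. The stresses were 2-deoxyglucose (2DG, a glucose analogue that blocks glycolysis), glucose starvation (GS) and tunicamycin (TM, which blocks N-glycosylation). Their doses are not in the labels. HT-1080 cells received 2DG alone (3 arrays), GS alone (2 arrays) or TM alone (1 array). Further HT-1080 cultures received 2DG with 10 mM metformin (Met), 300 µM buformin (Bu) or 100 µM phenformin (Phen), all biguanides, or with the respiratory chain inhibitors rotenone (Rot, 100 nM) or antimycin A (AA, 10 ng/ml). GS was combined with Rot or AA, TM with Rot or AA, and versipelostatin (VST, 3 µM) was added to 2DG and to GS. HT-1080 rho0 cells received 2DG, GS or TM, HT-29 cells received GS (3 arrays) or GS with VST, and HT-29 rho0 cells received GS. Exposure lasted 18 h, except 14 h for HT-29 rho0 with GS and for the third HT-29 GS array. Arrays marked S are labelled as the supernatant of a culture with its floating cells. The compounds were never given to unstressed cells, which leaves their own effect unmeasured, and the labels do not say whether arrays of a group came from separate cultures. P-values therefore measure the spread between arrays, which may be partly technical.

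NF-kappaB is a family of transcription factors that is held in the cytoplasm by inhibitor proteins such as IkB-alpha, the product of NFKBIA. When upstream kinases trigger the breakdown of the inhibitor, the factor enters the nucleus and switches on chemokines and cytokines, and also NFKBIA and TNFAIP3, whose products (IkB-alpha and the ubiquitin-editing enzyme A20) shut the signal off again. The transcripts of the chemokines and cytokines are short-lived, and their level is also set by proteins that bind AU-rich stretches of the mRNA. In tumour cell lines CXCL8, a neutrophil attractant, is a widely used marker of this pathway.

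The sequences just upstream of 9 of the genes are shown because this group is usually defined through NF-kappaB sites, which most of them carry. They come from RefSeq (GRCh38.p14), run 5′ to 3′ along the gene from 140 to 41 bases before its start, and are in lower case. Capitals mark an exact match, on either strand, to the 10-base NF-kappaB consensus or to the AP-1 motif TGANTCA, and in CXCL8 the match to GGAATTTCC. LIF is not shown.
CXCL8 (chr4:73740429-73740528, plus strand): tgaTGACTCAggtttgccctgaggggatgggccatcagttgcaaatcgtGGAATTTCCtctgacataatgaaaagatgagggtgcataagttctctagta
CXCL1 (chr4:73869253-73869352, plus strand): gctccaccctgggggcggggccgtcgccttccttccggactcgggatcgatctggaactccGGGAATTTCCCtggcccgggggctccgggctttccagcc
CXCL2 (chr4:74099236-74099335, minus strand): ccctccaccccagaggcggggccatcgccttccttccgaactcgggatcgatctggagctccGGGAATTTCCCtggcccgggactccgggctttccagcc
CXCL3 (chr4:74038730-74038829, minus strand): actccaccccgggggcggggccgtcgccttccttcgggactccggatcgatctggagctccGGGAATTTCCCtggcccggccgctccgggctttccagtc
IL6 (chr7:22727060-22727159, plus strand): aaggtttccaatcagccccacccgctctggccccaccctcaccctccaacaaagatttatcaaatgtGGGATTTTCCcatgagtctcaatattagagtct
IL11 (chr19:55370504-55370603, minus strand): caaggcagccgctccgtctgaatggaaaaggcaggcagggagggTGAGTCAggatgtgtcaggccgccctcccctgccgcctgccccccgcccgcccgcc
CCL20 (chr2:227813702-227813801, plus strand): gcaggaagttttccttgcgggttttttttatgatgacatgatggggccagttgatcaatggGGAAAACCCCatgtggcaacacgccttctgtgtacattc
NFKBIA (chr14:35404790-35404889, minus strand): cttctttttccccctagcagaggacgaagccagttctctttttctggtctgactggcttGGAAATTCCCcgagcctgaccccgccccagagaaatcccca
TNFAIP3 (chr6:137867119-137867218, plus strand): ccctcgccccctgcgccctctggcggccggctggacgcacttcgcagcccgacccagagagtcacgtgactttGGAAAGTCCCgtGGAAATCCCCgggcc

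An exact match to the NF-kappaB consensus lay within 250 bases before the start of 7 of the 9 genes (CXCL1, CXCL2, CXCL3, IL6, CCL20, NFKBIA and TNFAIP3). Of all 35116 promoters searched the same way, 5.21% held one. The closest match in CXCL8 differed from the consensus by 1 base. GGAATTTCC, read on both strands, was found in CXCL8, CXCL1, CXCL2, CXCL3 and NFKBIA, 5 of the 9, and in 0.413% of all promoters. Apart from that of CXCL8, these matches lie within a match to the consensus. TNFAIP3 held 2 consensus matches, starting 67 and 55 bases before its start. TGANTCA was found in CXCL8, 137 bases before its start, and in IL11, 96 bases before it, against 6.57% of all promoters. IL11 held no consensus match in this window. CXCL1, CXCL2 and CXCL3 are close paralogs, as the 3 stretches show, so their matches are not separate events. A match describes letters only, and binding was not measured.

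**Figure D1:**
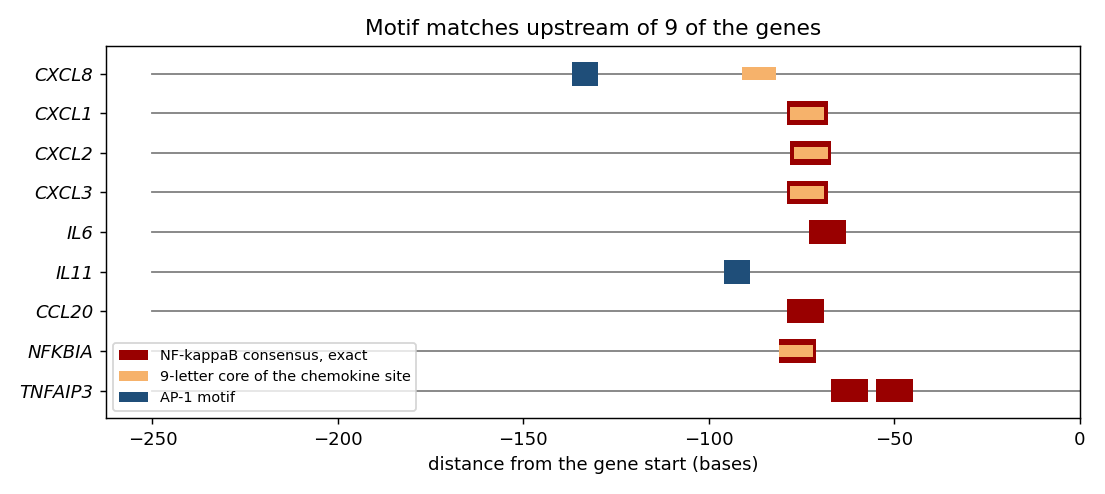
Positions of motif matches in the 250 bases before the start of 9 genes (horizontal axis, distance in bases; 1 line per gene). Red blocks are exact matches to the NF-kappaB consensus, orange blocks the 9-letter core found in CXCL8, CXCL1, CXCL2, CXCL3 and NFKBIA, and blue blocks the AP-1 motif; 7 of the 9 genes carry a red block.

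In untreated cells the 2 lines differed in most of these transcripts. As each array holds the RNA of a whole culture, a change per cell and a change in the share of cells that carry a transcript cannot be told apart. All signals are array intensities scaled so that every array has the same trimmed mean of 113.7, and changes are on the log2(signal + 5.69) scale, which understates changes of dim probe sets. A probe set under a signal of 45.5 on all but 1 array would not have been tested. CXCL8 gave 488 to 1835 on the 6 HT-1080 controls (median 662), 52.2, 98.4 and 166 on the 3 HT-29 controls, 293 and 59.4 on the 2 HT-1080 rho0 controls, and 243 on the HT-29 rho0 control. The HT-1080 controls were all above the HT-29 controls. CXCL3 gave 140 to 342 on the HT-1080 controls (median 210) and 16.8, 15.9 and 35.2 on the HT-29 controls. IL11, a cytokine of the IL6 family, gave 555 to 877 on the HT-1080 controls (median 625.2) and 0.579 to 6.71 on the HT-29 controls, where it was at background. The reverse order was seen for CXCL1, with 0.536 to 13.8 on the HT-1080 controls (median 6.62) against 53.2, 25.5 and 40.4 on the HT-29 controls.

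Of the 10 genes, 6 were lower and 2 higher in HT-29 than in HT-1080 controls, where 32.4% and 27.4% of all genes tested were lower and higher. For 4 of these 8 the call says little, since IL11, IL6, CXCL1 and CXCL2 entered the test only through the line where they were higher and stayed under 45.5 in the other. CXCL2 was under 45.5 on the HT-29 controls as well (17.5 to 27.3). Of the rest, the log2 differences were -3.04 (SE 0.50, adjusted p = 0.000108) for CXCL8, -3.01 (SE 0.29, adjusted p = 4.61e-07) for CXCL3, -1.28 for TNFAIP3 and -0.99 for LIF. The TNFAIP3 call also says little. Its signals were under 45.5 on all these controls (17.7 to 33.7 in HT-1080, 3.08 to 12.2 in HT-29), and it passed the filter through treated arrays, 12 of HT-1080 and 1 of HT-29. Under the other settings tried the fitted difference of IL11 ranged from -7.53 to -4.41, that of CXCL1 from 1.08 to 2.79 and that of CXCL2 from 0.92 to 3.48. CXCL1 and CXCL2 stayed under 45.5 on all 29 HT-1080 arrays, the highest values being 28.1 for CXCL1 and 17.7 for CXCL2. CCL20, which attracts cells bearing the receptor CCR6, missed the threshold (log2 difference -1.14, SE 0.49, adjusted p = 0.0577). NFKBIA gave 347 to 646 on the HT-1080 controls (median 461) and 412, 468 and 358 on the HT-29 controls. These ranges overlapped, with a log2 difference of -0.17 (95% interval -0.58 to 0.24).

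HT-1080 rho0 controls carried less CXCL8 and IL11 than HT-1080 controls. The log2 differences were -2.57 (SE 0.58, adjusted p = 0.0102) and -1.26 (SE 0.26, adjusted p = 0.00608), and 6.95% of all genes tested were lower and 6.14% higher in this comparison. The 2 rho0 controls lay below the 6 parental ones for both genes, but they also lay far apart for CXCL8 (293 and 59.4). Without the second of them neither gene passed the threshold (log2 differences -1.47 and -0.96, adjusted p = 0.251 and 0.147). The other 8 genes missed the threshold. TNFAIP3 was at 40.4 and 44.3 on the rho0 controls, above the 17.7 to 33.7 of the parental ones (log2 difference 0.66, adjusted p = 0.221), and its second probe set passed (1.17, adjusted p = 0.039 over all probe sets that passed the filter).

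**Figure D2:**
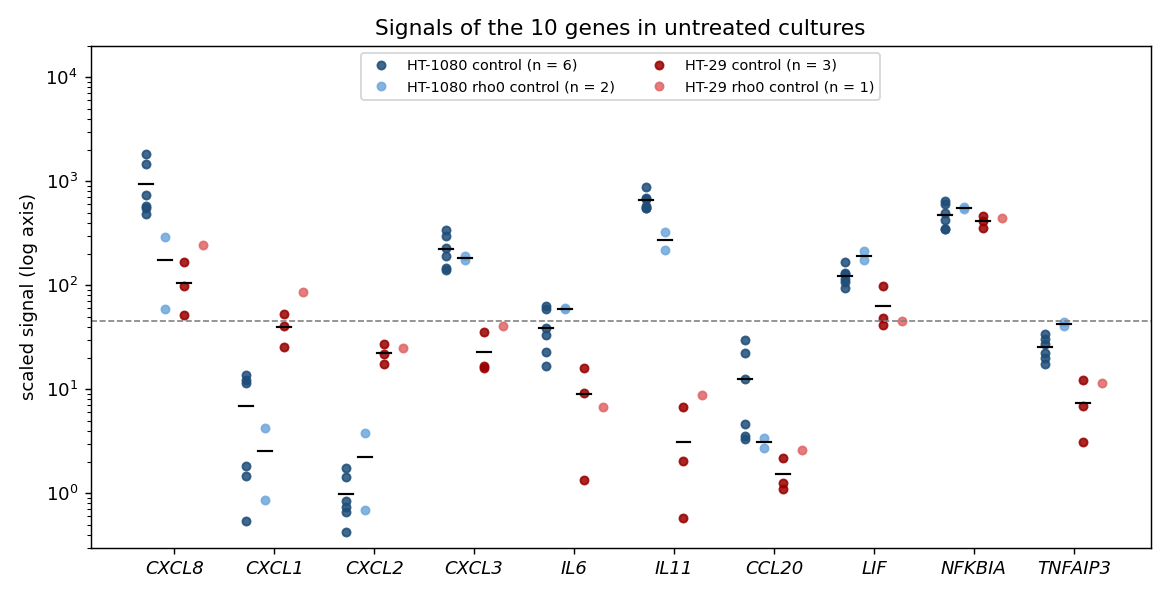
Scaled signal (vertical log axis, arbitrary intensity units) of the 10 genes on the 12 untreated arrays; each point is 1 array, black bars are means of groups with more than 1 array, and the dashed line is the filter at 45.5. CXCL8, CXCL3 and IL11 lie higher in HT-1080, CXCL1 and CXCL2 lie higher in HT-29, and NFKBIA lies at 347 to 646 in all groups. Signals of different genes come from different probes and are not comparable with each other.

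Stress alone moved few of these transcripts. With 2DG, IL11 fell in HT-1080 cells, from 877, 675 and 558 on the controls named for the 3 arrays to 345, 303 and 239. No treated array reached its own control, and the log2 change was -1.23 (SE 0.33, adjusted p = 0.0415). It was the only one of the 10 genes past the threshold, where 3.37% of all genes fell and 4.90% rose. A second, dimmer IL11 probe set did not follow it (log2 change -0.18, adjusted p = 0.715), and every fit without 1 of the arrays compared left IL11 short of the threshold (adjusted p = 0.16 to 0.205). CXCL8 gave 937, 358 and 672 with 2DG against 1835, 583 and 742 on the controls (log2 change -0.60, SE 0.25, adjusted p = 0.165).

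With GS in HT-1080 cells limma called 0 of the 10 genes, and 2 had an unadjusted p under 0.05; 4.36% of all genes rose and 5.10% fell. Those 2 were CXCL3, with 505 and 337 against 140 and 190 on the controls (log2 change 1.31, SE 0.40, adjusted p = 0.0626), and CXCL8, with 391 and 241 against 555 and 488 (log2 change -0.75, SE 0.31, adjusted p = 0.153). CXCL3 was thus above and CXCL8 below the control on both arrays. Tested over all probe sets that passed the filter, the second of IL11 fell (-1.19, adjusted p = 0.0409), where the first gave -0.87 (adjusted p = 0.204). Fitted on HT-1080 arrays alone, CXCL3, CXCL8 and IL11 all passed (adjusted p = 0.00286, 0.01 and 0.00336), and so did the same 3 genes with 2DG (adjusted p = 0.0118 for CXCL8, 0.0248 for CXCL3 and 0.000118 for IL11). These fits called many more of the 11456 genes tested, 2787 with GS and 2752 with 2DG. The fits on all arrays called 1083 and 947. Without the block IL11 passed with GS (-1.06, adjusted p = 0.0347).

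In HT-29 cells NFKBIA fell with GS, from 412, 468 and 358 on the controls to 209, 278 and 217. The ranges did not overlap, and the log2 change was -0.81 (SE 0.18, adjusted p = 0.00768), where 15.4% of all genes fell and 11.6% rose. Leaving out the first GS array or its control gave -0.73 with adjusted p = 0.0589 and 0.0593. CXCL8 gave 88, 469 and 94.2 against 98.4, 166 and 52.2 (log2 change 0.70, SE 0.25, adjusted p = 0.0598). The second GS array stood above the others for CXCL8, CXCL2 (108 against 39 and 32) and TNFAIP3 (34.6 against 8.55 and 5.07). CXCL8 passed the threshold when the other probe set of the gene was used (0.79, adjusted p = 0.0126). The GS effect differed between HT-29 and HT-1080 past the threshold for 0 of the 10 genes (limma; 3 had an unadjusted p below 0.05), and among all genes 0.402% were higher and 0.166% lower. The difference for CXCL8 was 1.45 (95% interval 0.58 to 2.33, adjusted p = 0.154).

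Adding a respiratory inhibitor to 2DG raised CXCL8, NFKBIA and, by the probe set that stood for it, TNFAIP3 in HT-1080 cells. Of the 10 genes 3 rose, where 12.4% of all genes tested rose and 20.2% fell, and limma gave 4 of the 10 an unadjusted p under 0.05. The median log2 change was 0.44 over the 10 genes and -0.11 over all genes. TNFAIP3 was at 24.9, 26.4 and 43.4 with 2DG alone, and at 313 with Met, 319 with Bu, 321 with Phen, 146 with Rot and 120 with AA. All 5 inhibitor arrays lay above all 3 arrays of 2DG alone and all 6 controls, and the log2 difference was 2.53 (SE 0.50, adjusted p = 0.000592). The TNFAIP3 call says little, because this probe set passed the filter only through arrays with a compound added or of stressed rho0 cells. NFKBIA was at 345, 381 and 404 with 2DG alone, and at 2098 with Met, 1086 with Bu, 1277 with Phen, 1285 with Rot and 1035 with AA. These groups did not overlap either, and the log2 difference was 1.72 (SE 0.38, adjusted p = 0.00151). NFKBIA was thus high with each of the 5 compounds, and so was TNFAIP3 by this probe set. The second TNFAIP3 probe set was at 54.4 with Rot and 48.4 with AA, within its 45.9 to 84.9 with 2DG alone.

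CXCL8 was at 6058 with Met, 5806 with Bu and 6566 with Phen, and at 797 with Rot and 974 with AA, against 358 to 937 with 2DG alone. Relative to its own control it was 4.13, 3.96 and 4.47 times as high with Met, Bu and Phen, and 1.37 and 1.67 times as high with Rot and AA. The log2 difference from 2DG over the 5 arrays was 1.98 (SE 0.41, adjusted p = 0.000877). It was 3.02 for Met, Bu and Phen taken alone (adjusted p = 0.00191) and 1.42 for Rot and AA (adjusted p = 0.0291). NFKBIA for Met, Bu and Phen alone missed the threshold (1.62, adjusted p = 0.0629). The biguanide arrays share 1 control (HT-1080 control 3, CXCL8 at 1468), as Rot and AA share another (control 4, at 583), and the doses differ, so these values stand side by side without a test between compounds. CCL20 was at 83.9, 90.7 and 99.8 with Met, Bu and Phen and at 3.06 with Rot and 10.4 with AA. Its change over the 5 arrays missed the threshold (log2 difference 1.57, SE 0.76, adjusted p = 0.118). Without the pairing of treated and control arrays as a block it was 2.41 (adjusted p = 0.00449).

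CXCL3 was at 830, 704 and 869 with Met, Bu and Phen, 324 with Rot and 137 with AA, against 265 to 484 with 2DG alone. Its fitted difference was -0.04 (95% interval -0.89 to 0.81), and 0.50 without the block. IL11 was at 709, 565 and 537 with Met, Bu and Phen, near the 688 of their control, and at 272 and 278 when Rot or AA was used, close to 2DG alone (239 to 345). Its fitted difference was 0.28 (95% interval -0.49 to 1.06), and -0.09 with the deposited scaling. IL6, CXCL1, CXCL2 and LIF missed the threshold as well, with log2 differences from -0.54 for IL6 to 0.60 for CXCL2.

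**Figure D3:**
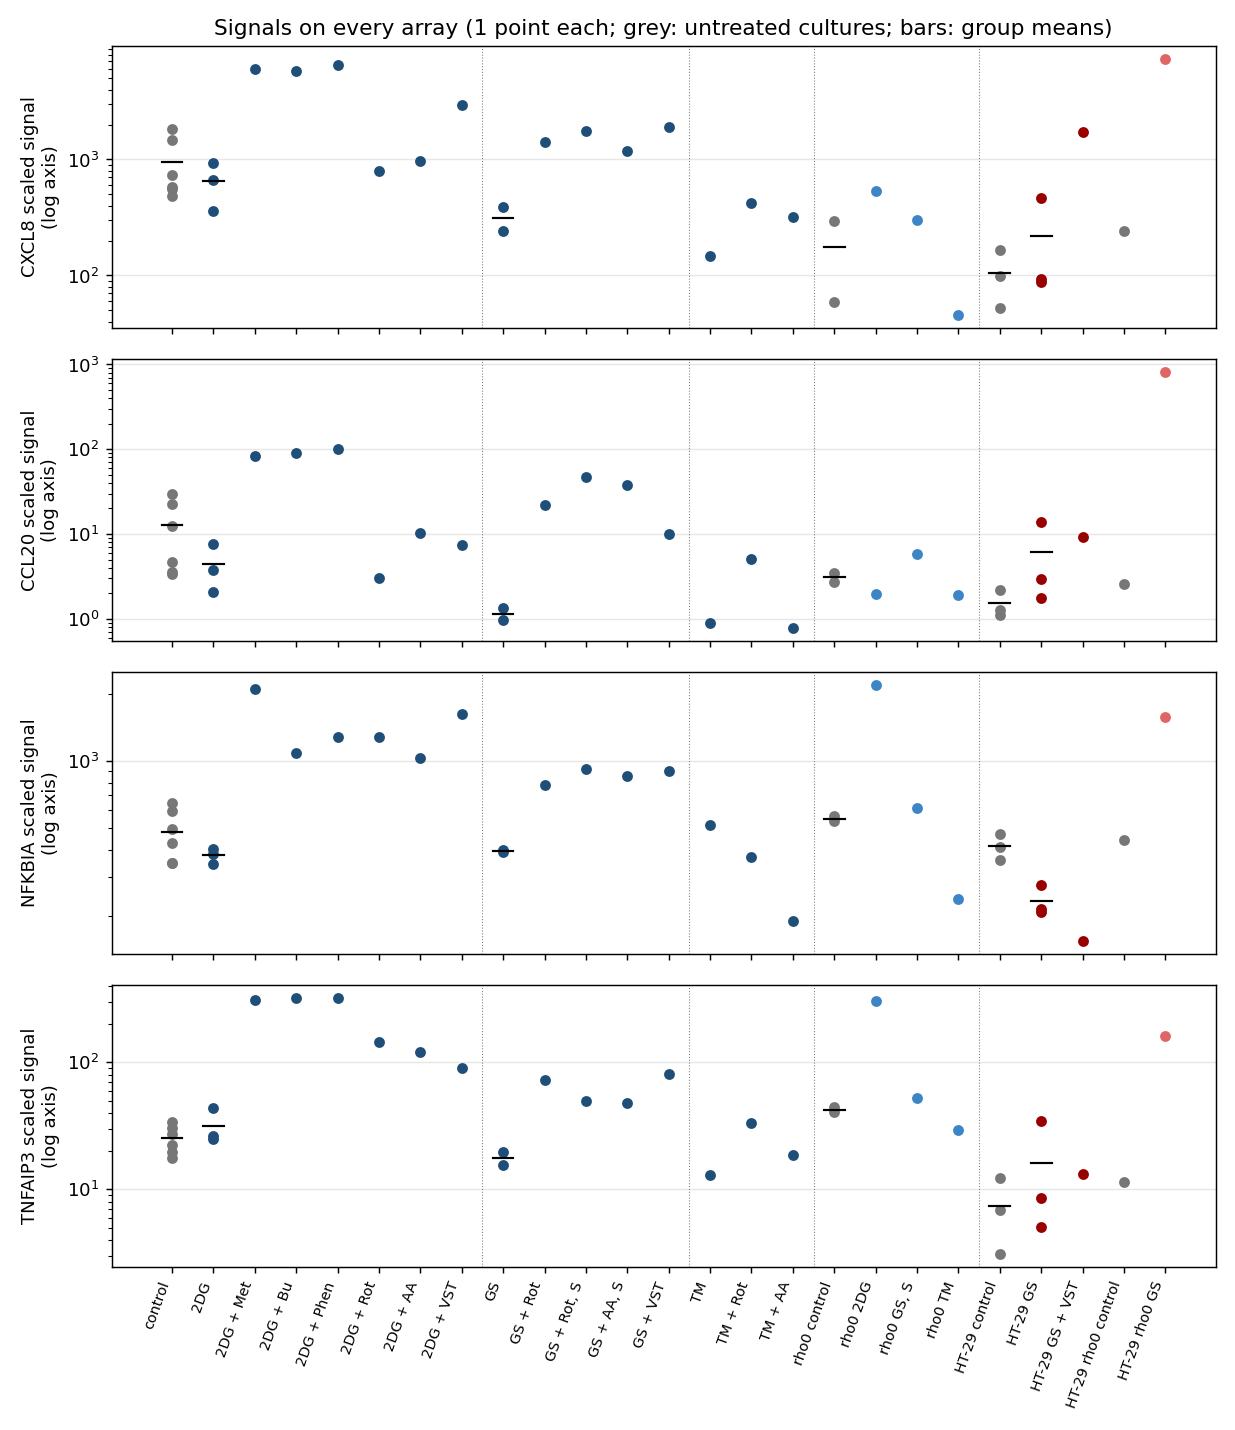
Scaled signal (vertical log axes) of CXCL8, CCL20, NFKBIA and TNFAIP3 on all 38 arrays; each point is 1 array, grey points are untreated cultures, dark and light blue points are HT-1080 and its rho0 derivative, dark and light red points are HT-29 and its rho0 derivative, and bars are means of groups with more than 1 array. S marks cultures that included floating cells. CXCL8 lies at 5806 to 6566 with 2DG and a biguanide and at 7385 in HT-29 rho0 with GS. NFKBIA, and TNFAIP3 by the probe set shown, lie above 2DG alone with each of the 5 inhibitors. The second TNFAIP3 probe set, not shown, overlaps with 2DG alone.

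Rot or AA added to GS raised CXCL8, CCL20 and TNFAIP3 in HT-1080 cells, so 3 of the 10 genes rose where 12.4% of all genes rose and 15.0% fell, with 4 of the 10 at an unadjusted p under 0.05 in limma. CXCL8 was at 1427 with Rot, 1775 with Rot and floating cells, and 1176 with AA and floating cells, against 391 and 241 with GS alone. The groups did not overlap, and the log2 difference was 2.46 (SE 0.45, adjusted p = 0.000299). CCL20 was at 22.1, 47.4 and 38 against 0.955 and 1.33 (log2 difference 2.41, SE 0.83, adjusted p = 0.0335). TNFAIP3 was at 72.2, 49.9 and 47.7 against 19.6 and 15.5 (log2 difference 1.46, SE 0.55, adjusted p = 0.0492). CCL20 and this TNFAIP3 probe set passed the filter only through arrays with a compound added or of stressed rho0 cells, so their calls say little. NFKBIA was at 779, 923 and 858 against 391 and 397, again without overlap, and fell just short (log2 difference 1.08, SE 0.41, adjusted p = 0.0571). Without the block it passed (1.19, adjusted p = 0.0144), and with the deposited scaling TNFAIP3 missed the threshold (1.15, adjusted p = 0.115).

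The single array of GS with Rot without floating cells gave 2.45 for CXCL8, 1.89 for CCL20 and 1.81 for TNFAIP3, values of 1 array given without a test. Without the second GS array the values were 2.26, 2.20 and 1.31, with adjusted p = 0.0717, 0.387 and 0.44; the 1 GS array left was assumed to vary like the other groups. For CXCL8 this was the only one of the 7 fits without 1 array that missed the threshold. CCL20 passed in 3 of these 7 fits and TNFAIP3 in 1. CXCL3 was at 394, 648 and 646 with the inhibitors and at 505 and 337 with GS alone (log2 difference 0.50, 95% interval -0.43 to 1.44), and the remaining genes lay between -0.33 for IL6 and 0.42 for IL11.

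Under tunicamycin the inhibitors went with lower NFKBIA, but not with lower CXCL8, and the 2 probe sets of TNFAIP3 went opposite ways. On the single HT-1080 array with TM alone, CXCL8 was at 147 (0.30 times its control), IL11 at 151 and TNFAIP3 at 13, all below the 6 controls, while NFKBIA was at 514, within their range. With Rot and with AA added to TM, CXCL8 was at 420 and 320 and TNFAIP3 at 33.4 and 18.6, above TM alone. All of these TNFAIP3 signals were under 45.5. Its second probe set was at 45.25 with TM alone, within the 22 to 65.4 of the 6 controls. With Rot and with AA it was lower, at 27 and 32.3. NFKBIA was at 368 and 190, below TM alone. Whether the inhibitors acted differently under 2DG and TM was tested after these values had been seen. The effect under 2DG in this test includes Met, Bu and Phen, which were not given with TM. NFKBIA differed (log2 difference of the effects 2.66, SE 0.63, adjusted p = 0.027), as 1 of the 10 genes higher where 1.37% of all genes were. Without the array of TM with AA it was 2.19 (adjusted p = 0.138), and it also missed the threshold without HT-1080 control 3 (2.71, adjusted p = 0.0532) or without the second 2DG array (2.69, adjusted p = 0.0951). The differences for TNFAIP3 (1.80, SE 0.83, adjusted p = 0.23) and CXCL8 (0.68, 95% interval -0.72 to 2.08) missed the threshold. On the HT-1080 rho0 array with TM, CXCL8 was at 45.7 and NFKBIA at 240, below their rho0 control (59.4 and 535).

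Versipelostatin, a compound reported to block the induction of GRP78 under glucose shortage, was used once with each of 3 stresses, so its arrays are values without a test. CXCL8 was at 2922 with 2DG and VST, at 1907 with GS and VST in HT-1080, and at 1732 with GS and VST in HT-29, which is 1.99, 3.43 and 17.6 times the control named for each. All 3 lay above every array of the same stress alone. NFKBIA did not follow in HT-29. NFKBIA was at 1628 and 906 on the HT-1080 arrays, or 3.30 and 2.12 times the control, but at 155 on the HT-29 array, or 0.376 times its control and the lowest of all 38 arrays. TNFAIP3 was at 90.8 and 81.4 in HT-1080 and at 13.2 in HT-29. The last value is near background, with a log2 change of 0.58 from its control. CXCL3 reached 868 with GS and VST in HT-1080.

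In rho0 cells under 2DG or GS, CXCL8, CCL20, NFKBIA and TNFAIP3 changed more from their own controls than in parental cells under the same stress. Thus 4 of the 10 genes were higher, where 7.74% of all genes were higher and 8.27% lower, and limma gave 5 of the 10 an unadjusted p under 0.05. CXCL8 was at 533 in HT-1080 rho0 with 2DG and at 303 with GS, against rho0 controls at 293 and 59.4, and at 7385 in HT-29 rho0 with GS against 243. The last value was the highest of CXCL8 on any array. In HT-1080 the stressed rho0 levels lay within those of parental cells with the same stress (358 to 937 with 2DG, 241 and 391 with GS). The HT-1080 rho0 controls lay below the parental ones (488 to 1835), so the larger change there is from a lower start. The HT-1080 rho0 array with GS includes floating cells, and the parental GS arrays do not. The log2 difference from the parental response was 2.81 (SE 0.42, adjusted p = 0.000229), and it stayed between 2.18 and 3.65, past the threshold, in all 22 fits without 1 array.

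The other 3 genes rested more on single arrays. NFKBIA was at 2195 in HT-1080 rho0 with 2DG (control 565), 614 with GS (control 535) and 1578 in HT-29 rho0 with GS (control 442). Its log2 difference was 1.80 (SE 0.39, adjusted p = 0.00385), and 1.27 without the HT-29 rho0 array (adjusted p = 0.0626). TNFAIP3 was at 307 (control 40.4), 52 (control 44.3) and 160 (control 11.4), with a log2 difference of 1.94 (SE 0.52, adjusted p = 0.0134). It missed the threshold without the HT-29 rho0 array (1.43, adjusted p = 0.13) and without the HT-1080 rho0 array with 2DG (1.69, adjusted p = 0.109). Both inhibitors were thus high with 2DG in HT-1080 rho0 and with GS in HT-29 rho0, and near their control with GS in HT-1080 rho0. CCL20 was at 818 in HT-29 rho0 with GS against 2.6 on its control, but at 1.96 and 5.82 on the HT-1080 rho0 arrays. Its log2 difference of 2.52 (SE 0.79, adjusted p = 0.0323) became 0.65 without the HT-29 rho0 array (adjusted p = 0.61), and without the block it was 2.70 (adjusted p = 0.0567). CCL20 and the TNFAIP3 probe set used passed the filter only through arrays with a compound added or of stressed rho0 cells, so their calls say little.

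HT-29 rho0 with GS also held the highest CXCL1 of the series, 245 against 85.8 on its control, and CXCL2 at 58.4 against 24.8, CXCL3 at 154 against 41 and LIF at 130 against 45.1. IL11 (2.87) and IL6 (8.85) were at background there. LIF, a cytokine of the IL6 family, was highest in HT-1080 rho0 with 2DG (650 against 213), and over the 3 rho0 arrays it missed the threshold (log2 difference 0.87, SE 0.39, adjusted p = 0.138).

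**Figure D4:**
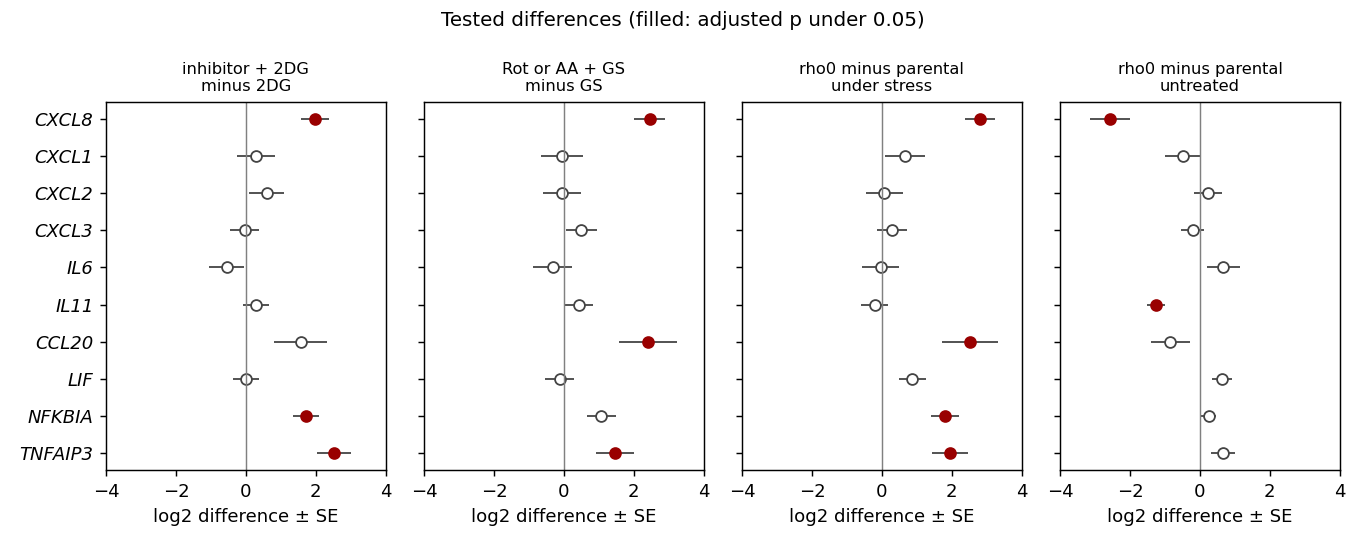
Log2 differences with standard errors (horizontal axes) of the 10 genes in 4 comparisons; filled red points have an adjusted p under 0.05 and open points do not. CXCL8, NFKBIA and TNFAIP3 lie to the right of 0 in the first 3 panels, NFKBIA being open in the second, and CXCL8 (-2.57) and IL11 (-1.26) are the filled points to the left in untreated rho0 cells. The panels share arrays of stress alone and controls.

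**Figure D5:**
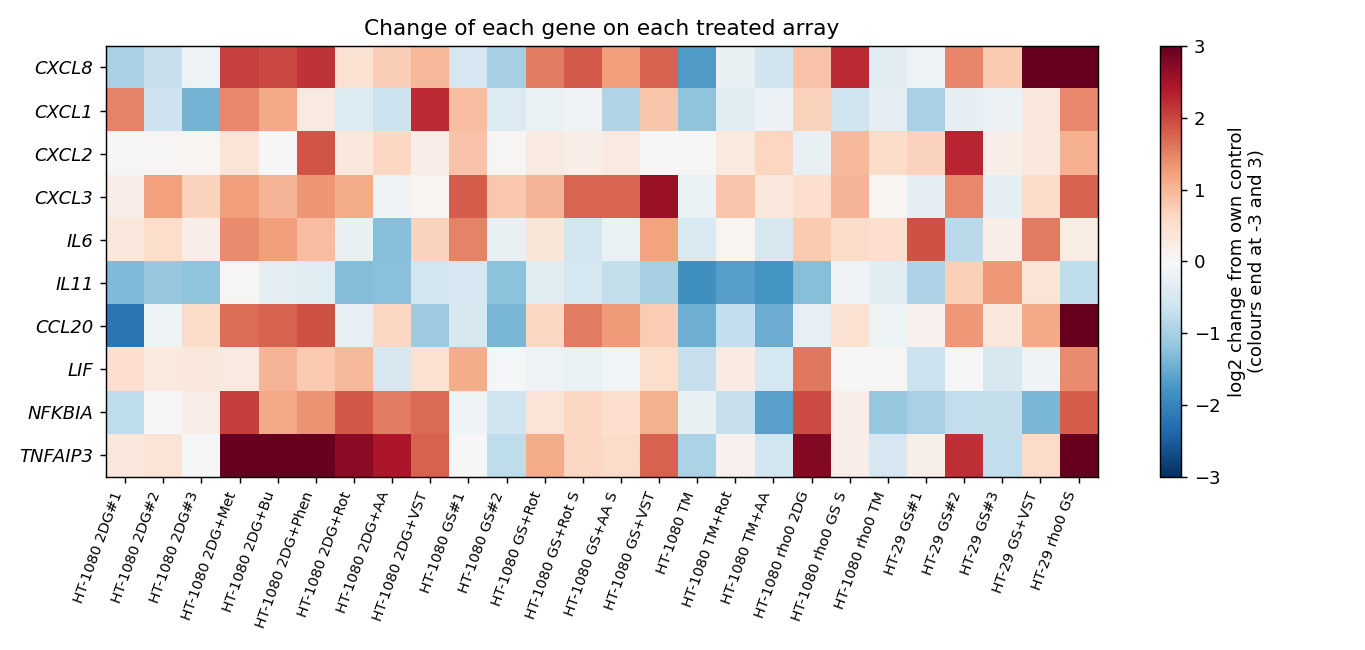
Log2 change of the 10 genes (rows) on each of the 26 treated arrays (columns) from the control array named for it; red is higher, blue is lower, and colours end at -3 and 3. TNFAIP3 is at 2.43 to 3.53 in the columns of 2DG with the 5 inhibitors, CXCL8 is at 4.06 and 4.89 in HT-29 with GS and VST and in HT-29 rho0 with GS, and IL11 is below 0 in all columns with 2DG alone or TM.

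Over the 26 treated arrays the changes from own control were most alike in 2 pairs of these genes. CXCL8 and CCL20 had a Pearson r of 0.84 (Spearman rho 0.84), and r was 0.82 over 24 arrays without the 2 arrays farthest out in CXCL8. NFKBIA and TNFAIP3 had an r of 0.80 (rho 0.74), and 0.77 without the 2 farthest in NFKBIA. Other pairs were also related, CXCL8 and TNFAIP3 with an r of 0.61 (rho 0.70, and 0.68 without the 2 farthest), LIF and TNFAIP3 with 0.61 (rho 0.54, and 0.52) and CCL20 and TNFAIP3 with 0.58 (rho 0.66, and 0.59). CXCL8 and NFKBIA had an r of 0.40 (rho 0.46, and 0.58 without the 2 farthest). These are descriptions, because arrays share controls and stresses. Of all genes tested, the 3 whose changes were most like those of CXCL8 were CCL20, INO80C and EWSR1 (r = 0.83 to 0.84). NOP16, CORO1C and SGK1 were most like NFKBIA (r = 0.86 to 0.88), and DCAF1, HNRNPF and SF3B4 most like TNFAIP3 (r = 0.86 to 0.89). For IL11 they were the mitochondrially encoded ND6, IFITM1 and TAGLN3 (r = 0.708 to 0.725). The nearest genes were CTPS1 and SRRT beside CXCL8 for CCL20 (r = 0.72 to 0.84), UTP6, ATXN2L and ITGB1-DT for CXCL3 (r = 0.71 to 0.72), and PPTC7, PELI1 and KLF5 for LIF (r = 0.75 to 0.79). For IL6 they were KIF26A, RARRES1 and ZNF687-AS1 (r = 0.69 to 0.74). CXCL1 was nearest to RRP15, NCR2 and ACTR3C (r = 0.66 to 0.71) and CXCL2 to ARRDC1-AS1, LARP1B and CNOT2 (r = 0.63 to 0.73), but both are mostly near background.

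Other genes of the pathway had calls in both directions where the 2 feedback inhibitors rose. The lists are short, and a count near the share of all genes called says little about a list. That share was 12.4% higher and 20.2% lower for an inhibitor added to 2DG. With an inhibitor added to 2DG, 3 of the 5 NF-kappaB subunits fell, RELB by 1.16 and REL by 0.96 on the log2 scale among them (adjusted p = 0.0087 and 0.00979). The median of the subunits was -0.91, against -0.11 for all genes. Of 18 further NF-kappaB targets tested, 2 fell and 0 rose past the threshold, with 3 at an unadjusted p under 0.05 and a median of -0.22. The 2 were the cytokine IL1A (-1.92, adjusted p = 0.00187) and NINJ1 (-0.84). Among 9 other inhibitors, NFKBIZ, an atypical nuclear IkB protein, rose by 1.53 (adjusted p = 0.00458), and TRAF3 and TNIP2 fell (-1.60 and -0.82). Of 10 kinases and adaptors 2 fell, namely IKBKB, a kinase that marks IkB for breakdown (-1.35), and IRAK1 (-0.76). Of 6 upstream receptors 3 fell, led by TLR3 (-2.38, adjusted p = 0.00157) and IL1RAP (-0.97). In a list of cytokine and chemokine receptors, IL6R was the 1 of 4 genes tested that fell (-1.51). The AU-rich binding factors KHSRP and HNRNPD rose, 2 of 8 (0.64 and 0.54).

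When Rot or AA was added to GS, 12.4% of all genes tested rose and 15.0% fell. Among the 5 subunits NFKB2 rose (1.47, adjusted p = 0.00156) and NFKB1 fell (-0.86). NFKBIZ rose again (1.95, adjusted p = 0.00165), while the deubiquitinase CYLD fell (-1.28). Of the 18 further targets 2 rose (IL1B by 0.79, SOD2 by 0.67) and 4 fell, led by IL1A (-1.74) and RIPK2 (-0.99), around a median of 0.38. TAB2 (-0.93) and MAP3K7 (-0.78) led 3 kinases and adaptors of 10 that fell. IL1RAP (-2.09) and TNFRSF1A (-0.68) fell among the 6 upstream receptors, IL6ST, the shared receptor subunit for IL6, IL11 and LIF, fell (-0.78) among 4 receptors, and 4 of 8 AU-rich binding factors rose, led by TIA1 (0.85) and HNRNPD (0.74).

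In stressed rho0 cells 3 of the 18 further targets rose, led by PLAU (0.89) and TNFAIP8 (0.67), and 2 fell, IL1A (-1.70) and BIRC2 (-0.55). Of all genes tested 7.74% were higher and 8.27% lower there. REL (-0.90), MAP3K7 (-0.71), IL6R (-1.76) and IL1RAP (-1.43) fell, 1 in each of their lists of 5, 10, 4 and 6 genes tested, and KHSRP rose (0.49). With stress alone, RELB (1.06) and RELA (0.46) rose under 2DG in HT-1080, and NFKBIZ rose under GS in HT-1080 (2.58, adjusted p = 0.00398) and in HT-29 (1.63, adjusted p = 0.00461). ZFP36, whose product promotes the decay of AU-rich mRNAs, also rose under GS in both lines (1.46 and 2.03). Of all genes tested 4.90% rose and 3.37% fell under 2DG. With GS 4.36% rose and 5.10% fell in HT-1080, and 11.6% rose and 15.4% fell in HT-29. Of the 18 further targets, 3 fell under GS in HT-1080, led by IL1B (-1.19) and PLAU (-1.11), and 1 rose, RIPK2 (0.54). In HT-29 4 of them rose with GS, led by IL1A (2.30, adjusted p = 0.00419), and TNFAIP2 fell (-0.95). Falls in HT-29 also included the deubiquitinase OTULIN (-0.75), the receptor TLR4 (-0.85) and ZFP36L2 (-1.62). ELAVL1, which binds AU-rich mRNAs, fell under 2DG (-0.52) and under GS in HT-1080 (-0.54) and HT-29 (-0.51).

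The probe sets of a gene agreed in part. The 2 of CXCL8 had the same sign in every comparison, for example 1.98 and 2.35 for an inhibitor added to 2DG. Those of TNFAIP3 also shared a sign in every comparison but differed in size. The second was at 45.9, 57.6 and 84.9 with 2DG alone and at 128.5, 88.1, 85, 54.4 and 48.4 with Met, Bu, Phen, Rot and AA, an overlap that gave 0.24 (adjusted p = 0.691), where the first gave 2.53. For rho0 cells under stress it gave 0.70 (adjusted p = 0.276) and for Rot or AA with GS 1.03 (adjusted p = 0.0788). The mean of both sets gave 1.38 for 2DG with an inhibitor (adjusted p = 0.0142). The second probe set of IL11 rose in rho0 cells under stress (1.35, adjusted p = 0.016), where the first gave -0.21. The other 2 probe sets of CXCL2 and the second of NFKBIA stayed under the filter on every array.

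Some properties of the arrays moved along with the compounds, and their part in the differences was not tested. Before scaling, the trimmed mean was 123 to 128 with 2DG alone and 89.5 to 102 with 2DG and an inhibitor, 126 to 128 with GS in HT-1080 and 95.8 to 98.5 with Rot or AA added, and 90.2 to 96.3 in stressed rho0 cells. With the deposited scaling kept, the median of all genes shifted by -0.36, -0.34 and -0.23 in the 3 comparisons, and CXCL8 still differed by 1.59, 2.09 and 2.57 (adjusted p = 0.0037, 0.00108 and 0.00037). The split of calls moved from 1419 higher and 2311 lower to 329 and 4535 for 2DG with an inhibitor, from 1420 and 1719 to 645 and 3546 for GS with Rot or AA, and from 887 and 947 to 279 and 1940 for rho0 cells. The same scaling changed it from 704 and 796 to 362 and 1651 for untreated rho0 cells and from 157 and 194 to 47 and 655 for 2DG against TM. The ratio of 3′ to 5′ ACTB signal, a measure of RNA integrity, was 1.51 to 1.76 with Rot or AA under GS and 1.26 to 1.42 with GS alone. The mtDNA transcripts matched (7 of 9) summed to 10.1 to 32.8 on rho0 arrays and 33517 to 47737 on parental controls. Of 8 epithelial markers 7 were higher in HT-29, and of 8 mesenchymal markers 6 in HT-1080, while COL1A1 and COL1A2 were dim in both and CDX2 was at background. Among 6 leukocyte markers LYZ (mean 5653 in HT-29) and CSF1R (mean 87.7 in HT-1080) were present, and PTPRC and CD3E, which define leukocytes, stayed at or under 26.3.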

How the data were processed

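Gene expression was measured in 38 samples of HT-1080, HT-29 and their rho0 derivatives on Affymetrix arrays of 54675 probe sets. The authors deposited MAS5 signal intensities on a linear scale, per the submitters' processing notes; other settings of that step are not given in the sources used here. Array number, not depth, limits the precision. Signals were scaled to a common trimmed mean of 113.7 (2% off each tail), 5% of it (5.69) was added, and log2 taken. Only the 41097 probe sets with 1 symbol in the platform annotation were used; 1801 had several, 11777 none, and 232 with missing values were left out. A probe set needed 45.5 (40% of the target) on at least 2 arrays, and that with the highest mean stood for its gene, leaving 11456 genes.

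Tests used limma 3.58.1 in R 4.3.3 (lmFit, eBayes with intensity trend), Benjamini-Hochberg adjustment over all genes and a threshold of 0.05. Treated arrays were compared with the control array named in their descriptions as a fixed block, with 5 residual degrees of freedom for stress groups and 15 for classes of compounds or rho0 cells. Untreated groups were compared over the 12 controls (8 degrees of freedom). Deviations of treated arrays from their group correlated with those of their controls (r = 0.30 to 0.63). No 2 arrays were identical. The fits were tested on simulated data. Named genes were the 10 genes in every comparison, up to 2 risers and 2 fallers of each pathway list, and the 3 genes most like each of the 10. Genes, lists and rules were chosen with earlier results of these data known. The comparison of 2DG with TM, and the tests of single probe sets, were added after values were seen. Alternatives changed the offset, filter, scaling, probe set rule, intensity trend, block, arrays used and each array in turn.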

Additional observations from a re-analysis of the deposited data

Results flagged for a closer look

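The NFKBIA values with respiratory inhibitors stood apart between 2DG and TM, a comparison chosen after they had been seen. Added to 2DG, the 5 inhibitors took NFKBIA to 1035 to 2098, and added to TM, Rot and AA left it at 368 and 190, against 514 with TM alone. The log2 difference of the 2 effects was 2.66 (SE 0.63, adjusted p = 0.027 in limma), with TM alone measured on 1 array. Without that array it could not be fitted. It missed the threshold without TM with AA (2.19, adjusted p = 0.138), without the second 2DG array (adjusted p = 0.0951), without HT-1080 control 3 (adjusted p = 0.0532) and without the intensity trend (adjusted p = 0.0618).

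CCL20 was below its control on both HT-1080 arrays with GS (log2 changes -0.48 and -1.37) and above it on all 3 HT-29 arrays (0.13, 1.31 and 0.32). The fitted difference was 1.51 (adjusted p = 0.44 in limma), so it did not pass the test, and all of these signals were under 45.5.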

How the results depend on the processing

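Of the members' called results recomputed, 441 kept direction and call, 57 kept the direction and lost the call, and 0 turned; of those that had missed the threshold, 39 passed and 100 turned. With an inhibitor added to 2DG, the 3 calls held in all 12 fits without 1 array. The TNFAIP3 call among them says little, because its probe set passed the filter only through arrays with a compound added or of stressed rho0 cells. The scarcity of arrays (1 to 3 per stress) limits all of this, as does the dim signal of CCL20, CXCL1 and CXCL2. The cause of the changes below was not tested.

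Members called numbered 0 for 2DG with an offset of 1%, without the filter, with the mean of probe sets or without the intensity trend, and 3 with arrays of the same line. For GS in HT-1080 they numbered 2 with an offset of 20% and 3 with arrays of the same line. For HT-29 with GS they were 2 with that offset, with the mean of probe sets or without the probe sets marked as cross-hybridizing, and 5 of 6 tested for the 2 lines' controls with a filter at 100%. They were 1 for rho0 controls with the 1% offset, 0 for 2DG against TM without the trend, and 1 for GS with Rot without floating cells.

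Genes called numbered 504 and 449 for 2DG and GS in HT-1080 without the trend (947 and 1083 in the report), 2752 and 2787 with arrays of the same line, and 1453 for 2DG with every probe set tested, an alternative chosen after seeing the data. For HT-29 with GS they were 1171 with the same line (3104 in the report). The line difference of GS gave 43, 121 and 0 with offsets of 1% and 20% and without the trend (65 in the report). Further counts were 1959 for the biguanides only (3730 in the report), 1349 for GS with Rot without floating cells (3139) and 720 without the rho0 array with floating cells (1834). For 2DG against TM they were 189 without the filter, 702 with the deposited scaling, 133 without the trend and 1029 with the same line.

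Without the replicate block, which pairs treated and control arrays, members called were 1 for GS in HT-1080, and genes called were 1865 for HT-29 with GS, 1047 for stressed rho0 cells and 201 for 2DG against TM. The calls of CCL20, NFKBIA and IL11 it changed stand in the report.

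Leaving out 1 array gave 81 to 223 genes and 0 members for 2DG, 20 to 45 and 0 for GS in HT-1080, 1189 to 4184 and 1 to 3 for HT-29 with GS, 0 to 772 and 0 to 2 for the line difference, 1604 to 3695 and 3 for inhibitors with 2DG, 485 to 2988 and 0 to 4 for GS with Rot or AA, 720 to 2040 and 1 to 4 for stressed rho0 cells, 6285 to 6814 and 8 to 9 for the lines' controls, 355 to 1453 and 0 to 2 for rho0 controls, and 5 to 459 and 0 to 1 for 2DG against TM. For 2DG against TM, leaving out the TM array could not be fitted. In HT-29 with GS, uncalled values turned: IL11 to -0.066 with the mean of probe sets, IL11 to between -0.10 and 1.00 and TNFAIP3 to between -0.28 and 1.19 in the fits without 1 array.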

Other observations

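Untreated HT-29 and HT-1080 cells differed in many genes (32.4% of all tested lower and 27.4% higher in HT-29), and genes around this pathway were among them. Of 18 further NF-kappaB targets tested, 10 were lower and 1 higher in HT-29, around a median of -0.42 on the log2 scale (-0.06 for all genes). The urokinase gene PLAU (-6.86, adjusted p = 1.57e-08) and IL1B (-6.45, adjusted p = 3.64e-11) had the largest differences among them, and TNFAIP8 was the higher one (1.06). Of 4 genes tested in the list of receptors 3 were lower in HT-29, led by OSMR (-5.18) and IL6R (-2.98). OSMR is a receptor of oncostatin M, which is not among the 10 genes. MYD88, the adaptor of Toll-like and IL1 receptors, was higher in HT-29 by 4.49 (adjusted p = 3.05e-09), as was IRAK1 by 0.47, while TAB3 (-1.29) and MAP3K14 (-0.99) led 5 lower genes of the 10 kinases and adaptors. The AU-rich decay factors ZFP36L2 (2.28) and ZFP36 (1.91) were higher.

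HT-1080 rho0 controls had more RELB (1.07, adjusted p = 0.00538), NFKBIE (1.17, adjusted p = 0.00522) and MAP3K14 (1.51, adjusted p = 0.00975) than HT-1080 controls, while CXCL8 and IL11 were lower. In the same lists MYD88 was also higher (1.00), and TNIP2 (-0.57) and TAB3 (-0.54) were lower. Of all genes tested 6.14% were higher and 6.95% lower, and the rho0 side rested on 2 arrays. MMP9 (2.29, adjusted p = 0.00133) and SOD2 (0.97, adjusted p = 0.0112) were the 2 of 18 further targets that were higher, and 7 of the 18 had an unadjusted p under 0.05.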
